A study of Mus musculus with 6 samples.

Results

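The genes described here are 38 genes of the unfolded protein response and the heat shock chaperone system, read in quadriceps muscle of 20-week-old C57BL/6 mice with and without estrogen receptor alpha in muscle. They were chosen by symbol from a fixed list, and each matched 1 of the 37477 Ensembl gene IDs in the table of counts. All 38 also passed the filter on low counts and were among the 13848 genes tested. The control group was wild type (WT, 3 libraries), and the other group carried a muscle-specific knockout of estrogen receptor alpha (called MERKO by the study, KO here, 3 libraries). The Cre driver of the knockout, the sex of the mice and whether a library came from 1 animal or from pooled animals are not given in the labels. The p-values therefore measure the spread between these libraries, which may be technical. RNA came from whole muscle, so fewer cells of a type and less RNA per cell cannot be told apart.

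Total counts ranged from 7388365 to 8560244 per library. The targeted gene, Esr1, was read first: WT replicates 1 to 3 held 50, 41 and 44 of its counts and the KO replicates 22, 16 and 16. The groups were apart, with KO lower, although its adjusted p in edgeR's quasi-likelihood test was 0.145. RNA of skeletal muscle fibres was read in 10 genes, such as Acta1 (skeletal alpha-actin) and Ckm (muscle creatine kinase). Their summed level was 203151 to 243105 CPM in WT and 194750 to 212551 CPM in KO, where CPM is the count of a gene scaled to a common library total. Most of this sum was Ttn, with a WT mean of 157533 CPM. The sum cannot tell quadriceps from other skeletal muscle, so that label was not tested. Among the listed myosin genes, WT means were 21746 CPM for Myh7, 10380 for Myh2, 3363 for Myh1 and 303.5 for Myh4. Myh7 was thus highest and Myh4 lowest, and whether quadriceps holds them in that order was not tested. Actn2 was at 701.5 CPM in WT replicate 3 and at 2286.9 to 2671.7 CPM in the other libraries. The summed markers of other cells that whole muscle holds overlapped between the groups. The adipocyte sum was mostly Fabp4 (WT mean 227.0 CPM), and the smooth muscle and pericyte sum mostly Rgs5 (444.9 CPM). Dcn was the largest part of the fibroblast sum (379.3 CPM). Overlap of such sums does not show how their other genes moved. The sums in WT and KO were 116.1 to 157.4 and 145.0 to 163.5 CPM for macrophages, 721.5 to 1032.9 and 790.6 to 901.9 for fibroblasts, and 262.3 to 345.6 and 283.7 to 322.1 for adipocytes. They were 317.1 to 327.2 and 288.5 to 322.5 CPM for endothelium, 583.1 to 631.3 and 542.4 to 616.8 for smooth muscle and pericytes, 59.1 to 85.9 and 49.3 to 88.2 for nerve, and 16.6 to 20.2 and 18.5 to 20.1 for satellite cells. Of the genes tested in these lists 0 passed an adjusted p of 0.05. In KO, 7 tested fibre genes were higher and 3 lower. For macrophages these numbers were 6 and 3, for fibroblasts 4 and 4, and for adipocytes 5 and 2. For endothelium they were 4 and 5, and for smooth muscle and pericytes 1 and 5. For nerve they were 0 and 6, and for satellite cells 2 and 2. Single markers had groups that did not overlap. With KO above WT these were Mrc1 (macrophages), Plin1 (adipocytes) and the fibre genes Myh1 and Ckm. With KO below they were Pecam1 (endothelium), Calcr (satellite cells, too low to be tested) and the fibre gene Myh2. Over all genes tested, 4.96% had every KO library above WT and 5.45% had every KO library below. Unadjusted p in edgeR's quasi-likelihood test was 0.00499 for Myh1, 0.0162 for Mrc1, 0.0351 for Pecam1 and 0.0442 for Myh11 (smooth muscle), whose groups overlapped. These genes were named after their values were seen.

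Proteins that enter the endoplasmic reticulum (ER) are folded there by chaperones, and unfolded protein in the ER activates the membrane sensors IRE1 (Ern1), PERK (Eif2ak3) and ATF6. These sensors act through the transcription factors XBP1, ATF4 and ATF6, which raise the genes of ER chaperones, of ER-associated degradation and of amino acid supply. In the cytosol, heat shock factor raises HSP70, HSP90 and their partners. Muscle fibres are also known for large amounts of small heat shock proteins, which bind to sarcomeres and to the cytoskeleton, and mitochondria keep a separate set of chaperones and proteases.

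The regulatory sequence that links the sensors to the chaperones is shown first, because it divides the ER members into 2 groups that are read again further on. The ER stress element, bound by ATF6 and XBP1, was searched as CCAAT followed, 9 bases on, by CCACG, on both strands in RefSeq promoter windows of the build GRCm38.p6, which run from 250 bases before to 50 bases after each annotated start. Atf6, Cryab, Hsp90aa1, Hsp90ab1, Hspa8, Hspa9 and Hspb2 had no window in the table and were not searched. Of the 31 members with a window, 5 held the element, all of them among the 10 ER members: Hspa5, Hsp90b1, Calr, Canx and Pdia6. Among all 27025 genes with a window, 0.137% held it. In the stretches below, read 5′ to 3′ on the strand of the gene, capitals mark the element, and the Hsp90b1 stretch holds it at 2 places. The Hspa5 stretch overlaps an exon in GENCODE, although it lies before the RefSeq start used for its window. A match is a description of letters and not a site of binding.
Hspa5, chr2:34772020-34772048, plus strand: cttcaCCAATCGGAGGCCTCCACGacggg
Hsp90b1, chr10:86705513-86705676, minus strand: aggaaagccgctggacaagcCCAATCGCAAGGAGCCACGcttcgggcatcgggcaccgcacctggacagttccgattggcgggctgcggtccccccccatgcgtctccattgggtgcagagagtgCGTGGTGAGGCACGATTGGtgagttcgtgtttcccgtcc
Calr, chr8:84847055-84847113, minus strand: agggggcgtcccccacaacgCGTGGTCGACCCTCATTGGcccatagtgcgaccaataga
Canx, chr11:50325780-50325838, minus strand: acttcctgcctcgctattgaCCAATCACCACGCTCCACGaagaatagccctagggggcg
Pdia6, chr12:17266471-17266529, plus strand: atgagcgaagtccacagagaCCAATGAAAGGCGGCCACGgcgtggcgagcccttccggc

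The heat shock element, bound by heat shock factor, was searched on both strands as GAA, TTC and GAA (or TTC, GAA and TTC) with 2 bases of any kind between each, and was held by 3 of the 31 members against 0.662% of all genes. Only 4 of 7 cytosolic, 4 of 6 small heat shock and 4 of 5 mitochondrial genes had a window to search. The 3 were Hsph1 and the pair Hspd1 and Hspe1. The Hsph1 match lies after the start, at offset 15 or 36 depending on the RefSeq start used, and is not shown. Hspd1 and Hspe1 encode the mitochondrial chaperonin and its lid, and share the same element. They lie on opposite strands of chromosome 1, with starts 111 bases apart in GENCODE, while the windows follow RefSeq starts. The element is shown from each gene's side, and capitals mark 2 overlapping matches. By GENCODE the stretch shown overlaps an exon.
Hspd1, chr1:55088054-55088081, minus strand: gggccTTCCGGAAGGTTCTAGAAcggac
Hspe1, chr1:55088054-55088081, plus strand: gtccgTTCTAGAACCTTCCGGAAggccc
Of the 31 members, 0 held the unfolded protein response element (TGACGTGG, in 0.714% of genes), the ATF4 composite site (TGATGNAAT, in 1.08%) or the palindromic estrogen response element (GGTCA and TGACC with 3 bases between, in 0.074%). That says only that these letters are not in these windows.

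Levels were compared between genes as CPM per kilobase (kb) of exons. Small heat shock proteins and cytosolic and mitochondrial chaperones stood at the top of the order. Cryab, which encodes alpha-B crystallin and protects desmin and actin filaments, was highest at 293.9 ± 15.6 CPM per kb in WT and 288.4 ± 54.0 in KO (SD, n = 3 each). Hspa8, the constitutive cytosolic HSP70, came next at 201.5 ± 18.7 in WT and 204.7 ± 16.7 CPM per kb in KO, and Hsp90ab1, the constitutive HSP90, followed at 151.7 ± 5.85 and 160.1 ± 10.2. The ranges of these 3 genes over the 6 libraries did not overlap. Below them Hspb7, Hspb8, Hspa9 and Hspb1 overlapped, with means from 113.7 to 143.3 CPM per kb. Hspb7 also overlapped with Hsp90ab1, at 121.1 to 186.1 against 147.2 to 171.5 CPM per kb over the libraries. Hspa5, the ER chaperone BiP, was the highest ER member at 78.6 ± 5.82 CPM per kb in WT and 79.3 ± 19.4 in KO. At the other end stood the sensors Ern1 (1.98 ± 0.375 CPM per kb in WT) and Eif2ak3 (1.64 ± 0.0475), the kinase inhibitor Trib3 (1.70 ± 0.276) and, lowest, the amino acid enzyme Asns (0.579 ± 0.218). Of the 37 pairs of neighbours in this order, 6 did not overlap across the libraries and 31 did.

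**Figure D1:**
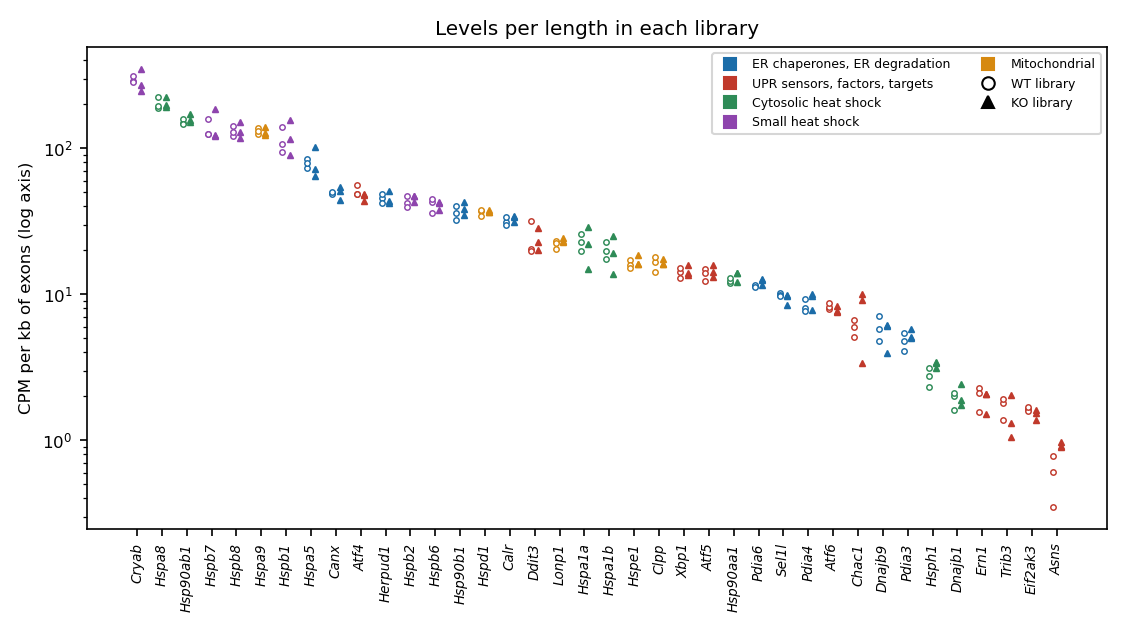
Level of each gene in each library, as CPM per kb of exons on a log axis, ordered by the mean over 6 libraries; open circles are WT, filled triangles are KO and colours are the 5 classes. Cryab, Hspa8 and Hsp90ab1 stand at the top and Asns at the bottom, and for most genes the circles and triangles overlap.

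The comparison of KO with WT asked whether loss of the receptor in muscle went with a change in protein-folding genes. No member passed an adjusted p of 0.05 in edgeR's quasi-likelihood test: 0 of 38 were higher and 0 were lower, where 0.0% of all 13848 genes passed. At an unadjusted p under 0.05 there were 2 members, Asns and Hsph1, against 4.26% of all genes. Under that unadjusted value DESeq2 placed 0 members and 185 of all 13848 genes, and limma voom 2 members and 596 genes. Neither called any member. Leaving out KO replicate 1 gave 0 members and 790 of 14122 genes under that value, and leaving out KO replicate 2 gave 3 members and 896 of 14100 genes. Leaving out any other single library gave 1 member, and 486 to 690 of 14097 to 14199 genes. On the log2 scale KO minus WT was above 0 for 24 members and below 0 for 14, where 49.3% of all genes were above 0. Its median was 0.02 over the members (0.0685 without KO replicate 1 and 0.0632 without KO replicate 3) and -0.0024 over all genes. Every KO library was above every WT library for 3 members (Asns, Hsph1 and Pdia6), against 4.96% of all genes, and below for 1 (Atf4), against 5.45%. In Ensembl IDs and GRCm38 positions these are ENSMUSG00000029752 (Asns, chr6:7675169-7693254, minus strand), ENSMUSG00000029657 (Hsph1, chr5:149614287-149636376, minus strand), ENSMUSG00000020571 (Pdia6, chr12:17266545-17284770, plus strand) and ENSMUSG00000042406 (Atf4, chr15:80255184-80257541, plus strand). The data bounded most differences closely, since 36 of 38 members had a 95% interval inside a 2-fold change up or down, and 28 had one within 0.5 log2 units. The exceptions to the wider bound were Asns and Chac1.

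**Figure D2:**
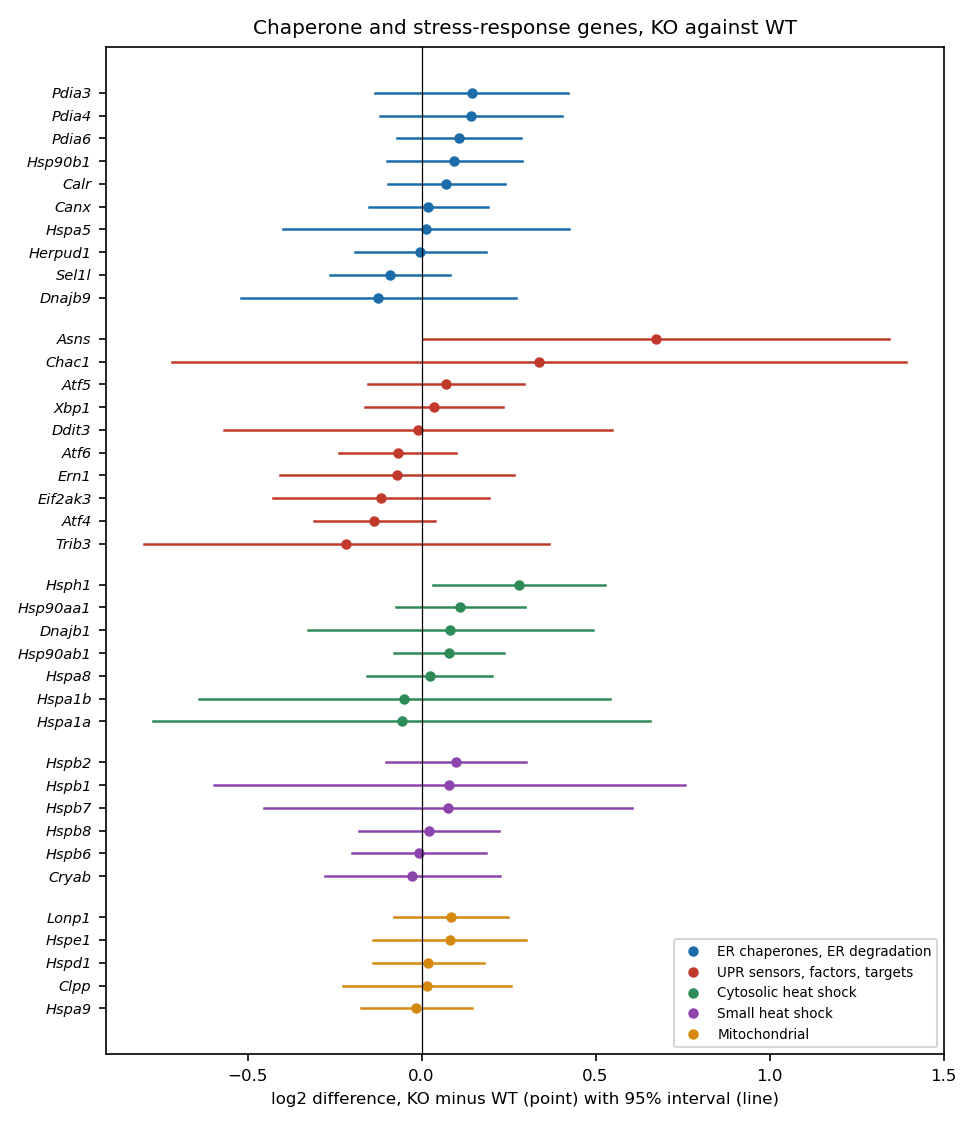
Log2 difference of KO from WT for each gene (point) with its 95% interval (line) from edgeR's quasi-likelihood fit, by class. Only the intervals of Asns and Hsph1 leave out 0, and those of Asns and Chac1 are the ones that reach past a 2-fold change.

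Among the sensors of the unfolded protein response, the groups overlapped for all 3. Atf6, which is cut in the Golgi to free a transcription factor, was at 73.3, 74.9 and 80.8 CPM in WT replicates 1, 2 and 3 and at 76.8, 71.3 and 70.2 CPM in KO. Its log2 difference was -0.07 ± 0.08 (SE). Ern1, the kinase and RNase that splices Xbp1, was at 16.2 ± 3.07 CPM in WT and 15.4 ± 2.56 in KO, and Eif2ak3, the kinase that slows translation, at 9.88 ± 0.287 and 9.11 ± 0.700 CPM (SD, n = 3 each). The sensor RNAs thus showed no difference beyond their spread, with log2 intervals from -0.24 to 0.10 for Atf6, -0.41 to 0.27 for Ern1 and -0.43 to 0.19 for Eif2ak3. Activity of the sensors, which lies in cleavage, splicing and phosphorylation, cannot be read from counts summed over a gene.

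Of the transcription factors, Atf4 was the member with no overlap on the lower side. Atf4, whose protein is made when translation is slowed and which turns on amino acid and stress genes, was at 114.3, 132.9 and 114.9 CPM in WT replicates 1, 2 and 3. In KO it was at 112.4, 114.2 and 102.6 CPM. The highest KO library and the lowest WT library were almost level, and WT replicate 2 stood apart from the rest; without it the log2 difference was -0.06. The log2 difference was -0.14 ± 0.08 (SE), with an adjusted p of 0.989 in edgeR's quasi-likelihood test. Xbp1, the factor spliced by IRE1, was at 45.9 ± 3.62 CPM in WT and 47.0 ± 3.89 in KO, and Atf5, a relative of Atf4 linked to the mitochondrial stress response, at 27.4 ± 2.6 and 28.8 ± 2.64 CPM (SD, n = 3 each). Their log2 differences were 0.04 and 0.07. Ddit3, which encodes the death-promoting factor CHOP, was at 34.8, 33.8 and 54.1 CPM in WT and at 48.8, 34.4 and 38.9 CPM in KO. WT replicate 3 and KO replicate 1 were its high libraries, 1 in each group, and its log2 difference was -0.01 with an interval from -0.57 to 0.55. A share of 10.9% of the exonic bases of Ddit3 also belongs to other genes.

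The targets of ATF4 and CHOP did not share a direction. For Asns, which makes asparagine, the WT counts were 16, 7 and 13 against KO counts of 21, 22 and 20, or 2.14, 0.957 and 1.65 CPM against 2.49, 2.66 and 2.48. All KO values lay above WT, with little spread in KO and a wide one in WT. The log2 difference was 0.67 ± 0.32 (SE), from 0.004 to 1.34, with an adjusted p of 0.989 in edgeR's quasi-likelihood test (0.0488 before adjustment). The log2 difference of Asns was 0.42 without WT replicate 2, its lowest library, and its adjusted p ran from 0.840 to 1 over the alternatives. Counting error alone gives Asns a coefficient of variation (CV) of 24.6% per library. Chac1, which degrades glutathione and is named here for its spread after its values were seen, was at 9.78, 8.34 and 10.9 CPM in WT and at 16.3, 5.56 and 14.9 CPM in KO. Both the highest and the lowest of its 6 libraries were KO. Its log2 difference was 0.34 over all libraries and 0.69 without KO replicate 2, where its adjusted p of 0.289 was the lowest of any member under any alternative. Trib3, a pseudokinase that restrains ATF4 and AKT, was at 3.61 ± 0.586 CPM in WT and 3.12 ± 1.08 in KO (SD, n = 3 each), a log2 difference of -0.22 that ran from -0.52 to -0.03 as single libraries were left out. Of the 10 sensors, factors and targets 4 were higher and 6 lower in KO, 0 passed, and the median log2 difference was -0.04. That median was above 0 without WT replicate 3 (0.03) and without KO replicate 2 (0.02).

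ER chaperones and ER-associated degradation genes were higher in KO for 7 of 10 members and lower for 3, 0 passing, and their median log2 difference was 0.05. Hspa5, the chaperone that holds the sensors silent until unfolded protein draws it away, was at 307.3, 356.5 and 333.8 CPM in WT replicates 1, 2 and 3 and at 272.4, 428.2 and 305.6 CPM in KO. The KO group held both the highest and the lowest library. Its log2 difference was 0.01 ± 0.17 (SE), with an interval from -0.40 to 0.42, and without KO replicate 2 it was -0.20. Pdia6, a disulfide isomerase that also binds IRE1, was at 42.7, 43.1 and 42.1 CPM in WT and at 43.6, 47.5 and 46.8 CPM in KO. The groups did not overlap for Pdia6, by a narrow margin, and the log2 difference was 0.11 ± 0.08 (SE) with an adjusted p of 0.993 in edgeR's quasi-likelihood test. Pdia4, another disulfide isomerase, was at 22.4, 19.3 and 18.4 CPM in WT and at 24.1, 18.6 and 23.4 CPM in KO. Its groups overlapped, with a log2 difference of 0.14.

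Hsp90b1, the ER form of HSP90 (GRP94), was at 146.3 ± 15.8 CPM in WT and 156.1 ± 14.98 in KO, a log2 difference of 0.09, with 15.7% of its exonic bases in exons of other genes. The lectin chaperones calreticulin and calnexin, which hold glycoproteins until they are folded, were close in level between genotypes. Calr was at 90.8 ± 5.71 and 95.4 ± 4.86 CPM, and Canx at 230.9 ± 3.23 and 234.1 ± 24.0 CPM. Pdia3, the isomerase that works with both, was at 15.03 ± 2.13 and 16.6 ± 1.28 CPM (SD, n = 3 each throughout). The log2 differences were 0.07 for Calr, 0.02 for Canx and 0.14 for Pdia3. In ER-associated degradation, Sel1l, the scaffold of the HRD1 ligase, was at 87.9, 84.5 and 82.8 CPM in WT and at 84.1, 82.8 and 72.6 CPM in KO. KO replicate 3 was low for Sel1l and the other KO libraries lay within or beside the WT range, for a log2 difference of -0.09. Herpud1, which gathers that complex, was at 106.5 ± 7.49 and 106.3 ± 11.7 CPM, and Dnajb9, the BiP partner that restrains IRE1, at 15.03 ± 3.01 and 13.8 ± 3.12 CPM (SD, n = 3 each). Their log2 differences were -0.0036 and -0.12. The 5 ER members whose promoter stretches carry the ER stress element had log2 differences from 0.01 to 0.11, all above 0, and the 5 without it from -0.12 to 0.14. In 4 of the 5 with the element, Calr being the exception, KO replicate 2 was the highest of the 6 libraries, against 0 of the 5 without it and 16.8% of all genes tested. Both readings lean on that library. Without it the log2 difference was -0.20 for Hspa5 and -0.049 for Canx, and stayed above 0 for Hsp90b1, Calr and Pdia6. These counts are descriptive, and the difference between the groups was not tested.

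Cytosolic heat shock chaperones were higher in KO for 5 of 7 members and lower for 2, 0 passing, and their median log2 difference was 0.08. Hsph1, an HSP110 that exchanges ADP for ATP on HSP70, had the smallest unadjusted p of all members. It was at 16.9, 22.6 and 20.2 CPM in WT replicates 1, 2 and 3 and at 24.6, 25.0 and 22.7 CPM in KO. All KO values lay above WT, with KO replicate 3 and WT replicate 2 nearly level. The log2 difference was 0.28 ± 0.12 (SE), from 0.03 to 0.53, with an adjusted p of 0.989 in edgeR's quasi-likelihood test (0.0289 before adjustment). Without WT replicate 1, its lowest library, the log2 difference of Hsph1 was 0.175. Hsp90aa1, the inducible HSP90, was at 47.0, 48.5 and 50.8 CPM in WT and at 48.0, 55.2 and 55.0 CPM in KO. Hsp90ab1 was at 448.5, 474.8 and 441.5 CPM in WT and at 514.3, 471.5 and 454.8 CPM in KO. For both HSP90 genes the groups overlapped, by KO replicate 1 for Hsp90aa1 and by WT replicate 2 for Hsp90ab1, and the log2 differences were 0.11 and 0.08. The constitutive form had 10.8 to 14.0 times the level of the inducible form per kb.

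The inducible HSP70 genes varied between libraries more than between genotypes. Hspa1a was at 77.3, 58.4 and 68.1 CPM in WT and at 44.4, 65.7 and 85.9 CPM in KO, and Hspa1b was at 63.8, 49.0 and 55.7 CPM in WT and at 38.7, 54.1 and 70.1 CPM in KO. KO replicate 1 was the lowest and KO replicate 3 the highest of the 6 libraries for both. These near-identical copies lie on chromosome 17 with 9951 bases between them, and Hspa1a had 1.15 to 1.23 times the CPM of Hspa1b in every library. The sources used here do not say how reads that fit both were counted, so the split between them is uncertain, and exons of a predicted gene overlap 19.0% of Hspa1a. Summed to 1 gene they were at 124.0 ± 16.9 CPM in WT and 119.6 ± 36.5 in KO (SD, n = 3 each), a log2 difference of -0.05 with an interval from -0.75 to 0.64. Hspa8, which folds new proteins without induction, was at 804.5, 957.6 and 837.3 CPM in WT and at 825.3, 961.4 and 854.7 CPM in KO. Its groups overlapped, with replicate 2 high in each, and its log2 difference was 0.02. Dnajb1, the HSP40 partner of inducible HSP70, was at 6.12 ± 0.809 CPM in WT and 6.47 ± 1.18 in KO (SD, n = 3 each), a log2 difference of 0.08.

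Small heat shock proteins were the class whose summed level spread most between KO libraries in proportion, with a WT mean of 1314 ± 105.5 CPM against 1339 ± 250.3 for KO (SD, n = 3 each). Cryab was at 426.2, 460.7 and 417.1 CPM in WT replicates 1, 2 and 3 and at 363.6, 516.4 and 399.7 CPM in KO. Hspb7, a small heat shock protein of striated muscle that binds filamin C, was at 344.7, 437.7 and 347.0 CPM in WT and at 335.4, 515.4 and 339.7 CPM in KO. Hspb1 (HSP25 in mouse), which caps actin filaments, was at 110.6, 143.3 and 97.9 CPM in WT and at 93.1, 159.7 and 118.7 CPM in KO. For all 3 genes KO replicate 2 was the highest library, WT replicate 2 the second and KO replicate 1 the lowest. Their log2 differences were -0.03, 0.08 and 0.08, with intervals from -0.28 to 0.22, -0.45 to 0.61 and -0.60 to 0.76. Hspb2, expressed in heart and skeletal muscle, was at 35.0, 39.0 and 33.0 CPM in WT and at 35.7, 39.2 and 39.5 CPM in KO, and its groups overlapped with a log2 difference of 0.10. It lies head to head with Cryab on chromosome 9 with starts 1029 bases apart, and 30.2% of its exonic bases are also exons of Cryab on the other strand. No strand-aware counting is stated, so reads there cannot be told apart. Hspb8, which works with BAG3 in the removal of damaged filamin, was at 255.5 ± 21.6 and 259.3 ± 33.7 CPM, and Hspb6, which takes part in the relaxation of smooth muscle, at 94.7 ± 10.98 and 94.2 ± 6.29 CPM (SD, n = 3 each). Their log2 differences were 0.02 and -0.0072. Of the 6 small heat shock genes 4 were higher and 2 lower in KO, 0 passed, and the median log2 difference was 0.05. Without KO replicate 2 the median was -0.11, without WT replicate 3 it was -0.0078, and without KO replicate 1 it was 0.12.

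Mitochondrial chaperones and proteases had the lowest median CV within groups of the 5 classes, 5.52%. Hspa9, the matrix HSP70 (mortalin) that pulls proteins in through the inner membrane, was the most abundant by CPM, at 539.2, 588.8 and 562.1 CPM in WT and at 544.6, 597.7 and 529.4 CPM in KO. Hspd1, the chaperonin HSP60, was at 97.8, 90.7 and 100.5 CPM in WT and at 99.9, 96.1 and 97.0 CPM in KO. Hspe1, its lid HSP10, was at 25.2, 23.5 and 22.3 CPM in WT and at 23.9, 27.3 and 23.9 CPM in KO. The groups overlapped for each of these genes, and the pair that shares a heat shock element did not share its highest library, which was WT replicate 3 for Hspd1 and KO replicate 2 for Hspe1. Exons of the pair overlap over 4.2% of Hspd1 and 7.6% of Hspe1. Lonp1, the protease that clears oxidized matrix proteins, was at 101.5, 98.6 and 89.5 CPM in WT and at 99.4, 106.0 and 101.4 CPM in KO. Clpp, the proteolytic core of another matrix protease, was at 19.96 ± 2.24 and 20.2 ± 0.899 CPM (SD, n = 3 each). Log2 differences were -0.02 for Hspa9, 0.02 for Hspd1, 0.08 for Hspe1, 0.08 for Lonp1 and 0.02 for Clpp, 4 above 0 and 1 below, and every interval lay within 0.5 log2 units either way. Of these 5 genes 0 passed.

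**Figure D3:**
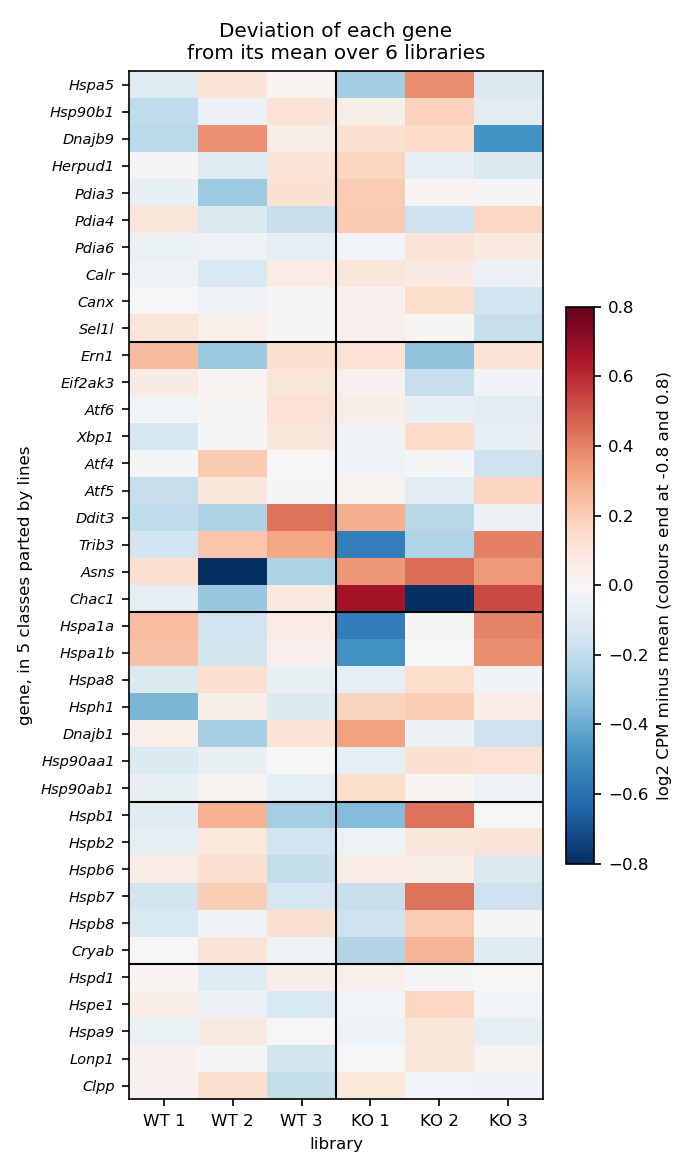
Deviation of each gene in each library from its own mean over the 6 libraries, on a log2 CPM scale, with classes parted by black lines and WT left of the vertical line. The column of KO replicate 2 is red for Hspa5, Hspb1, Hspb7 and Cryab and deep blue for Chac1, while the lower block of mitochondrial genes stays pale.

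Differences between libraries of 1 genotype were larger than those between genotypes for several members. KO replicate 2 was the highest of the 6 libraries for 16 of 38 members, where this held for 16.8% of all genes tested. By class these were 4 of 10 ER members, 2 of 10 sensors, factors and targets, 3 of 7 cytosolic, 4 of 6 small heat shock and 3 of 5 mitochondrial genes. KO replicate 1 was the lowest library for 8 of 38 members, against 18.1% of all genes, 4 of them small heat shock genes. Summed over the 6 small heat shock genes, the level was 1250.7, 1435.9 and 1256.0 CPM in WT replicates 1, 2 and 3 and 1154.7, 1623.9 and 1238.1 CPM in KO. The ER members together were at 1235.2 CPM in KO replicate 2 and between 1012.1 and 1115.4 CPM in the other libraries. The sensors, factors and targets were lowest there, at 329.5 CPM, with the others between 332.6 and 370.8 CPM.

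Among the 30 members of at least 20 CPM, 6 had a CV within groups above 14.3%, the value that 90% of the 4909 genes of that level stayed under. These were Hspa5, Ddit3, Hspa1a, Hspa1b, Hspb1 and Hspb7, named after their values were seen. For Hspb7 the CV was 20.8%, where counting alone gives 1.81%, and for Hspa5 it was 18.1% against 1.95%. They did not share 1 pattern: Hspa1a and Hspa1b peaked in KO replicate 3, Ddit3 in WT replicate 3, and Hspa5, Hspb1 and Hspb7 in KO replicate 2. Sums of other gene lists stood apart in some of the same libraries. The summed level of 9 blood cell genes, led by the globins Hba-a1, Hbb-b1 and Hbb-b2 (5 genes tested, 1 higher and 4 lower in KO), was 1361 and 1334 CPM in WT and KO replicate 2, the high libraries of the small heat shock genes, and 781.2, 1179, 622.8 and 547.4 CPM in WT replicates 1 and 3 and KO replicates 1 and 3. The T cell gene Cd3e and the neutrophil gene Ly6g had 0 counts in all libraries. The sum of 10 immediate early genes, which follow activity and handling (5 tested, 1 higher and 4 lower in KO), was lowest in the same libraries, at 56.9 CPM in WT replicate 2 and 54.4 CPM in KO replicate 2, against 64.0 to 69.0 CPM elsewhere. That sum was mostly Jun and Junb, at 30.6 and 13.95 CPM in WT replicate 2 and 30.9 and 13.8 CPM in KO replicate 2. Nr4a1 was also lowest of the KO libraries in replicate 2, at 1.57 CPM. Fos and Ier2 were instead highest of the KO libraries there, at 3.02 and 3.50 CPM, so the list did not move together. The sum of 8 fibroblast markers was also lowest in WT and KO replicate 2, at 721.5 and 790.6 CPM against 833.3 to 1032.9 elsewhere. Ddit4, a stress-induced inhibitor of mTORC1, was at 21.2 and 20.3 CPM in WT and KO replicate 2 and at 2.92 to 7.31 CPM in the others. Fkbp5, an HSP90 co-chaperone induced by glucocorticoids, was at 39.8 and 44.3 CPM there and at 11.2 to 31.1 CPM in the others. These lists and genes were singled out after their values were seen. Their part in the result was not tested.

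**Figure D4:**
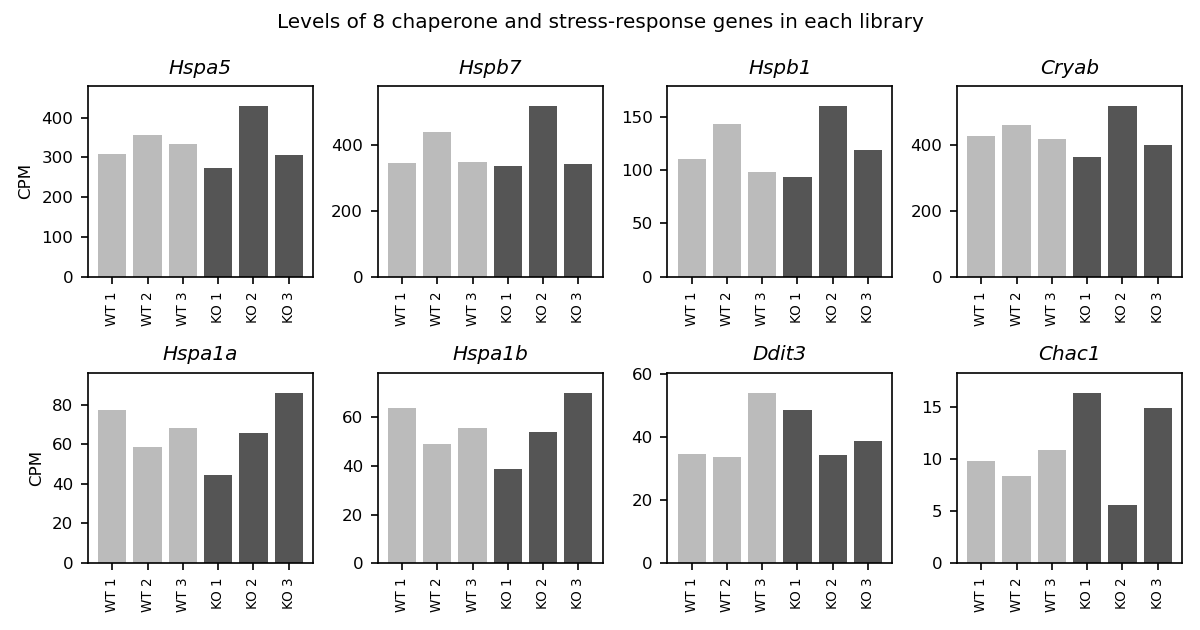
CPM of 8 genes in each library, WT in light bars and KO in dark bars, each axis starting at 0. KO 2 is the tallest bar for Hspa5, Hspb7, Hspb1 and Cryab and the shortest for Chac1, and KO 3 is the tallest for Hspa1a and Hspa1b.

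Other genes of the same pathways, listed apart from the members, also held no call in edgeR's quasi-likelihood test at an adjusted p under 0.05. Among 22 tested ER folding and degradation genes 15 were higher in KO and 7 lower, and the median log2 difference was 0.03. Sil1, which recharges BiP, was at 13.7, 14.0 and 13.2 CPM in WT and at 16.3, 15.6 and 16.1 CPM in KO, without overlap and with an unadjusted p of 0.0642. Hyou1, another BiP exchange factor of the HSP110 family, was at 25.6, 26.3 and 29.5 CPM in WT and at 29.7, 37.1 and 28.2 CPM in KO, which overlapped. The 19 tested integrated stress response genes had 7 higher and 12 lower, with a median of -0.07. The serine enzyme Psat1, an ATF4 target like Asns, was at 5.88 ± 1.17 CPM in WT and 4.40 ± 0.766 in KO, the opposite direction to Asns, and Eif2s1, the translation factor that PERK phosphorylates, at 20.2 ± 3.55 and 23.9 ± 2.29 CPM (SD, n = 3 each).

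In the cytosol, 29 further chaperones and heat shock factors had 15 higher and 14 lower, with a median of 0.01. Among these pathway lists 1 gene had an unadjusted p under 0.05, where 4.26% of all 13848 genes tested did. That gene was Dnajb2, an HSP40 that passes clients to the proteasome. It was at 15.7, 15.5 and 17.4 CPM in WT and at 19.8, 19.6 and 20.9 CPM in KO, without overlap, with a log2 difference of 0.31 ± 0.11 (SE), and an adjusted p of 0.989 in edgeR's quasi-likelihood test (0.0128 before adjustment). Dnaja4 was at 121.9 ± 4.96 and 137.3 ± 18.2 CPM (SD, n = 3 each). All 8 subunits of the TRiC chaperonin, which folds actin and tubulin, were higher in KO by small amounts. The median was 0.05, and the groups overlapped for each. Not all KO libraries shared this: the TRiC sum was 739.0 CPM in KO replicate 1, below the WT range of 745.3 to 776.8 CPM. It was 818.7 and 801.7 CPM in KO replicates 2 and 3. Cct4 was at 97.4 ± 1.02 and 104.4 ± 7.30 CPM and Cct7 at 71.0 ± 9.14 and 76.3 ± 6.80 CPM (SD, n = 3 each). The other small heat shock genes tested, Hspb3 and Hspb11, were at 12.2 ± 0.820 and 12.5 ± 0.248 CPM and at 1.33 ± 0.428 and 1.5 ± 0.541 CPM (SD, n = 3 each). Of 13 further mitochondrial chaperones and proteases 7 were higher, 6 were lower and the median was 0.01. The mortalin partner Grpel2 was at 21.6 ± 3.39 CPM in WT and 18.7 ± 2.07 in KO, and Clpx, the unfoldase that feeds Clpp, at 145.5 ± 6.24 and 133.8 ± 13.0 CPM (SD, n = 3 each). Groups overlapped for both.

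The deposited counts came with fold changes and p-values of the authors. For 0 of 38 members did the authors' deposited table give an adjusted p under 0.05, and the adjusted p was 1 for each. The members with an unadjusted p under 0.05 in the authors' deposited table were again Asns, with a log2 fold change of 0.69, and Hsph1, with 0.30.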

How the data were processed

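RNA was extracted from quadriceps with Trizol and libraries came from a TruSeq RNA kit, per the labels' protocols, which name no strand-marking step. The build mm10, edgeR and TopHat 1.3.3 are named in the submitters' processing notes. The authors deposited counts that are whole numbers, not normalized, for each Ensembl gene and library. The log2 fold change and log2 mean CPM in the deposited table are the authors' own, as are the p-values deposited beside them; the sources used here do not give their test.

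Of 37506 rows, 29 repeated an ID with identical counts and were merged. GENCODE M21 (GRCm38, the assembly mm10 names) gave positions and exon lengths. Genes were filtered with filterByExpr, scaled by TMM and compared on genotype by edgeR 4.0.16's quasi-likelihood test (robust, two-sided, R 4.3.3), with Benjamini-Hochberg adjustment over 13848 genes. The standard error is the log2 difference divided by the square root of F. CPM uses the TMM-scaled totals.

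The members and lists were chosen with earlier results of these data known. Given in every library were, per class, the 3 members with the smallest unadjusted p and the highest CPM, and always Hspa5, Ddit3, Hspa1a, Hspa1b, Cryab and Hspd1; of each pathway list, the 2 genes with the smallest unadjusted p are named. Alternatives were RLE, upper-quartile and no scaling, 2 other filters (at least 1 read in all, or 1 CPM in 3 libraries), DESeq2 1.42.0, limma 3.58.1 (voom), leaving out each library, a block for the replicate number, and summing Hspa1a and Hspa1b. Marker lists for macrophages, endothelium, fibroblasts, adipocytes, smooth muscle, nerve and satellite cells were also summed.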

Additional observations from a re-analysis of the deposited data

How the results depend on the processing

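Of the 38 members 0 were called under any of the 14 alternatives. Members at an unadjusted p under 0.05 numbered 1 with the filter of 1 CPM in 3 libraries, beside 620 of the 14463 genes kept. With the replicate block they numbered 1, beside 685 of 13848 genes. The count of genes called over all genes was 19 with no filter beyond 1 read, 2 in DESeq2 and 1 in limma voom, and ran from 0 to 3 when single libraries were left out. Members without overlap between groups numbered 5 with no scaling and 6 to 9 when a library was left out, as smaller groups overlap less often by construction. The share of all genes without overlap was not computed under these settings, so these counts are not read as a result about the members. When single libraries were left out, the median log2 difference ran from 0.0194 to 0.0685 over all members, 0.0194 to 0.096 in the ER class, -0.0731 to 0.0262 in the sensors, factors and targets, 0.0564 to 0.145 in the cytosolic class, -0.113 to 0.123 in the small heat shock class and 0.0020 to 0.076 in the mitochondrial class. In 18 members the sign of the log2 difference held throughout, but its size did not, with ranges over the left-out libraries of 0.018 to 0.17 (Hsp90b1), 0.043 to 0.25 (Pdia3), 0.070 to 0.25 (Pdia4), 0.085 to 0.14 (Pdia6), 0.027 to 0.12 (Calr), -0.13 to -0.026 (Sel1l), -0.17 to -0.055 (Eif2ak3), -0.11 to -0.027 (Atf6), -0.17 to -0.063 (Atf4), -0.52 to -0.026 (Trib3), 0.42 to 0.94 (Asns), 0.070 to 0.69 (Chac1), 0.17 to 0.38 (Hsph1), 0.079 to 0.17 (Hsp90aa1), 0.026 to 0.12 (Hsp90ab1), 0.044 to 0.17 (Hspb2), 0.016 to 0.13 (Hspe1) and 0.031 to 0.12 (Lonp1). The sign turned outside the left-out libraries for 4 members near 0: Hspa5 (-0.011 with the replicate block, -0.012 in limma voom), Herpud1 (0.0037 with upper-quartile scaling, 0.010 with no scaling, 0.0065 with no filter), Ddit3 (0.0003 with no scaling, 0.0049 with the replicate block, 0.0080 in limma voom) and Hspb6 (0.0004 with upper-quartile scaling, 0.0094 with no scaling, 0.0025 with no filter). Leaving out single libraries turned the sign of 20 members, whose log2 differences then ran from -0.20 to 0.14 (Hspa5), -0.25 to 0.051 (Dnajb9), -0.098 to 0.053 (Herpud1), -0.049 to 0.097 (Canx), -0.21 to 0.064 (Ern1), -0.032 to 0.094 (Xbp1), -0.0008 to 0.13 (Atf5), -0.16 to 0.25 (Ddit3), -0.30 to 0.16 (Hspa1a), -0.27 to 0.15 (Hspa1b), -0.043 to 0.10 (Hspa8), -0.077 to 0.18 (Dnajb1), -0.14 to 0.25 (Hspb1), -0.099 to 0.060 (Hspb6), -0.16 to 0.20 (Hspb7), -0.082 to 0.10 (Hspb8), -0.19 to 0.075 (Cryab), -0.024 to 0.051 (Hspd1), -0.067 to 0.021 (Hspa9) and -0.073 to 0.085 (Clpp). The cause was not tested. Replicate numbers are shared by the groups, and are not stated to mark pairs. Across genes, same-numbered libraries deviated together with correlations of -0.015, 0.16 and 0.038, and unlike-numbered ones with -0.17 to 0.14. The highest value, 0.16, was that of replicate 2. Whether same-numbered libraries shared a day or batch cannot be told from these values. The main fit did not use the numbers as pairs. With the replicate block 0 genes and 0 members were called. Depth limits Asns and Trib3 most, whose counting CVs were 24.6% and 19.4%.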
